A study of Mus musculus with 2 samples.

Results

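The replication origin and fork machinery was described as 45 genes, matched by gene identifier and GENCODE symbol and taken for the known roles of their proteins. No measured value was a criterion, but the list was chosen with earlier results of these data known. All 45 were found among the 42462 annotated genes of the tables, and all 45 were among the 9982 protein-coding nuclear genes with a mean of at least 1 TPM. The material was megakaryocyte-erythroid progenitors (MEP), bone marrow cells that give rise to red cells and to the megakaryocytes that shed platelets, taken as primary cells from C57BL/6J mice, male and adult, aged 5 to 6 weeks. Total RNA above 200 bases was read in 2 libraries, called replicate 1 and replicate 2 here as in the labels, with 100 cells and added spike-in RNAs in each. The labels name separate biosamples for them but 1 donor record, and there was 1 group with no second condition, so no test was possible and the spread between the libraries may be technical. The libraries held 30016974 and 51510347 expected counts, and the gene with the fewest had 328 in replicate 1 and 925 in replicate 2. A level below is the authors' TPM, a share of all transcripts that is corrected for transcript length and summed over a gene's transcripts, given for replicate 1 and then for replicate 2.

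DNA replication starts where the origin recognition complex (ORC) binds. With CDC6 and CDT1 it loads the ring of MCM proteins, while geminin holds CDT1 back, so that each origin is licensed before S phase and not again within it. CDC45 and GINS then turn the ring into an active helicase, polymerase alpha-primase lays primers, and polymerases epsilon and delta extend them with the clamp PCNA, its loader RFC and the single-strand binding protein RPA. Genes of this machinery are known targets of E2F factors, and MEP are known as cycling progenitors.

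The machinery was expressed throughout, and most of its genes were well above the typical expressed gene. The median level over the 45 genes was 48.01 and 52.94 TPM, beside 11.8 and 13.575 TPM over all 9982 expressed genes. Of the 45 genes, 44 reached 10 TPM in both libraries, a level that 53.2% of the expressed genes reached and 24.7% of all protein-coding nuclear genes. The exception was Gins3, at 6.56 and 10.66 TPM. Pcna, the sliding clamp, was the highest at 298.67 and 352.13 TPM and stood at the 98.3 percentile of the expressed genes. Gins3, at the 37.7 percentile, and Orc1, at the 49.1 percentile, were the members below the median expressed gene. By transcripts annotated as protein-coding, the median of the 45 genes was lower, at 30.03 and 39.68 TPM, and 41 reached 10 TPM in both libraries. Orc1, Gins2, Gins3 and Rfc1 did not, and most Rfc1 transcripts had no class in the reference. The same values over all expressed genes were not computed. In RNA pooled from cells, fewer cells in S phase and less RNA per cell cannot be told apart.

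**Figure D1:**
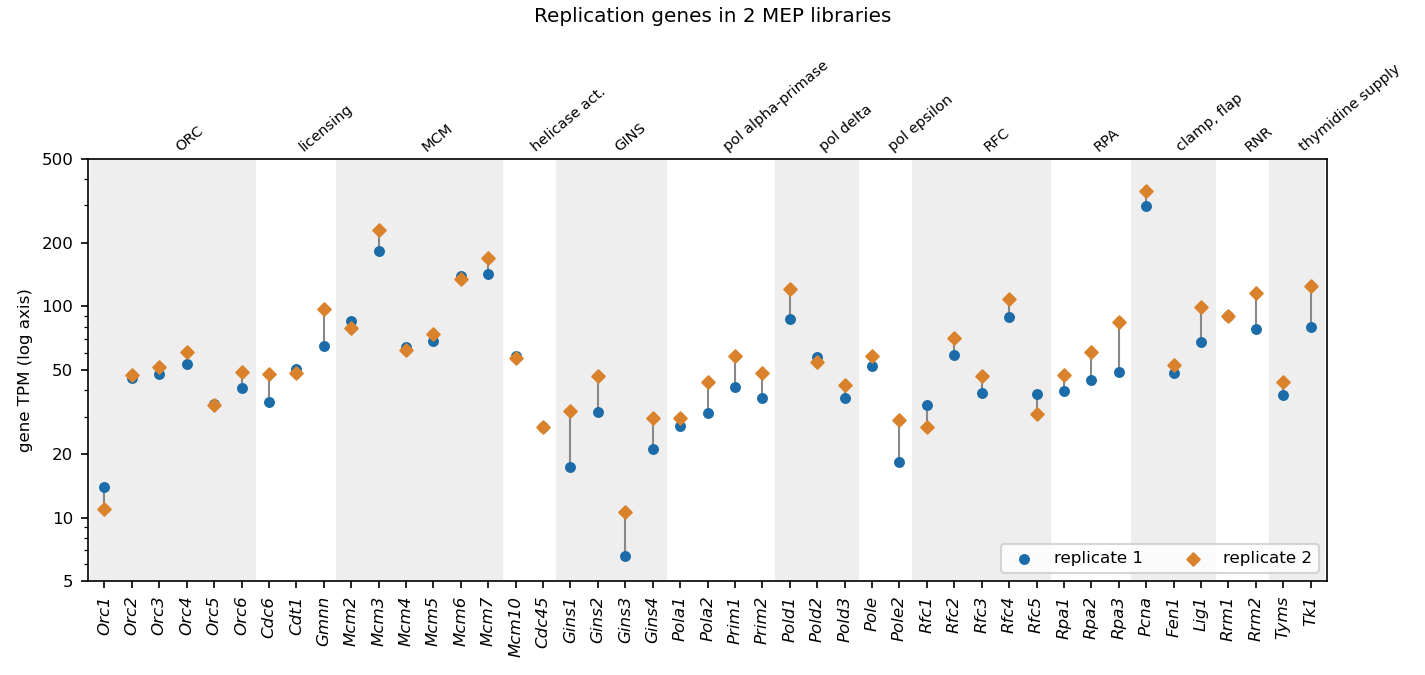
Level of each of the 45 replication genes in TPM (log axis), ordered by role, with replicate 1 as circles and replicate 2 as diamonds joined by a line. Pcna and Mcm3 are at the top, Gins3 and Orc1 at the bottom, and no other gene is below 17 TPM in either library.

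The promoters were read for the words that E2F factors are known to bind. RefSeq promoter windows on GRCm38.p6, each from 250 bases before to 50 bases after a start, were given for 37 of the 45 genes, in 45 windows; Gmnn, Mcm4, Gins1, Gins2, Gins4, Prim2, Pole and Rfc2 had none. The E2F-like words searched on both strands were TTTGGCGC, TTTGCCGC, TTTCGCGC and TTTCCCGC, and words may overlap. They were found in 15 of the 45 windows (33.3%), beside 2.26% of all 32851 windows and 2.85% of the 21263 windows of protein-coding genes. The 15 windows belonged to Orc1, Orc3, Cdc6, Cdt1, Mcm3, Mcm5, Mcm6, Mcm7, Gins3, Pola1, Pold1, Pold3, Pole2, Rfc3 and Lig1, which are 2 ORC genes, 2 licensing genes, 4 MCM genes, 1 GINS gene, 4 polymerase genes, 1 RFC gene and the ligase gene. Mcm3, Mcm5, Mcm6, Mcm7 and Rfc3 held more than 1 word in a window. With the bases after the RefSeq start left out, 9 genes held a word. This was 20% of the windows, beside 1.86% of all windows and 2.35% of those of protein-coding genes. Of the other words searched, CCAAT was in 55.6% of the windows, beside 38.2% of those of protein-coding genes and 37.4% of all. The GC box GGGCGG was in 71.1%, beside 46.2% and 35.7%, and the CHR words TTTGAA and TTCGAA were in 15.6%, beside 17.6% and 19.2%. The median GC content was 60% in the windows of the 37 genes, 56.3% in those of protein-coding genes and 52.7% in all windows, and its part in these shares was not tested. A match describes letters in a window and is not a measured site.

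The stretches below show the words that lie before the RefSeq start in 6 of these promoters. The promoters were chosen to cover the origin, licensing, MCM and GINS genes. In the stretches the words are in capitals and the sequences run 5′ to 3′ on the gene's strand. They are chr4:108579397-108579453 (plus strand) for Orc1, chr11:98907983-98908050 (plus) for Cdc6, chr8:75109326-75109397 (plus) for Mcm5, chr1:128359715-128359845 (minus) for Mcm6, chr5:138172011-138172078 (minus) for Mcm7 and chr8:95633488-95633555 (plus) for Gins3.
Orc1: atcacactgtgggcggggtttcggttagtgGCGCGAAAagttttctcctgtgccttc
Cdc6: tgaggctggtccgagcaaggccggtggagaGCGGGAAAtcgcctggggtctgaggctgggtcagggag
Mcm5: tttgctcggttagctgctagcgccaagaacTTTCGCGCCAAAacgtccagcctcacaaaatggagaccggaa
Mcm6: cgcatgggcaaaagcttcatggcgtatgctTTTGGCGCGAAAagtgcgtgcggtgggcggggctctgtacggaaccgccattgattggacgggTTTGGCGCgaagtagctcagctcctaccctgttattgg
Mcm7: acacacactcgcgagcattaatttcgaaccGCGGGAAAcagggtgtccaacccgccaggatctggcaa
Gins3: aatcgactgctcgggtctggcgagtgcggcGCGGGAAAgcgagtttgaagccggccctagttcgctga
In Mcm5 and in Mcm6 a pair of words on opposite strands overlap, and Mcm6 has a further copy closer to the start. A further word in the Mcm7 window, after the start, is not shown. RefSeq and GENCODE starts differ. By the GENCODE M21 bounds of the genes, the words shown for Orc1, Cdc6, Mcm7 and Gins3 lie inside the gene. Those of Mcm5 and Mcm6 lie before it. Mcm6 was at 138.68 and 134.79 TPM. Gins3, with a word at 41 bases before the RefSeq start, had the lowest level of the 45 genes. Pcna, which had the highest, held no such word in its window. Levels of genes with and without a word were not compared.

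The ORC genes were close to each other except Orc1, which encodes the largest ORC subunit. Orc1 (ENSMUSG00000028587.14, GRCm38 chromosome 4, 108579423 to 108614833, plus strand) was at 13.93 and 10.96 TPM. Orc2 was at 45.75 and 47.29, Orc3 at 48.01 and 51.77, Orc4 at 53.11 and 60.95, Orc5 at 34.28 and 34.10, and Orc6 at 40.98 and 48.81 TPM. Orc4 exceeded Orc1 by 3.81 and 5.56 times. Both libraries of Orc1 were below both libraries of each other ORC gene. Orc1 was also the lowest of the 6 when only transcripts annotated as protein-coding were counted (10.67 and 8.52 TPM) and by counts per kb of its longest coding transcript. Orc4 did not keep its place: its coding transcripts held 12.05 and 11.70 TPM, the second lowest after Orc1, and Orc6 became the highest at 40.98 and 48.80 TPM.

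Of the 3 licensing genes, Cdc6 and Cdt1 were at levels like those of most ORC genes and Gmnn was higher. Cdc6, the ATPase that joins ORC to load the helicase, was at 35.16 and 47.54 TPM, and Cdt1, its partner in loading, at 50.59 and 48.10 TPM. Gmnn, which encodes geminin, the inhibitor of CDT1, was at 64.55 and 97.02 TPM. Gmnn was thus above Cdt1 in both libraries, by a margin that was wider in replicate 2. By counts per kb of the longest coding transcript they were level in replicate 1, at 76.99 for Gmnn and 77.12 for Cdt1. Gmnn was higher in replicate 2, at 102.1 beside 66.5. That measure divided Gmnn by 1127 bases, while Gmnn-202, of 963 bases, held 100% and 97.96% of its TPM. It thus sets Gmnn lower than the length of its main transcript would.

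The MCM genes, which encode the helicase ring of 6 subunits, had the highest medians of the subcomplexes by gene TPM, 111.815 and 106.905. By coding transcripts their medians of 76.6 and 76.3 TPM were below those of ribonucleotide reductase, 82.9 and 99.1 TPM. Mcm3 was at 182.03 and 228.45, Mcm7 at 141.75 and 169.50, and Mcm6 at 138.68 and 134.79 TPM. Mcm2 was at 84.95 and 79.02, Mcm5 at 68.30 and 73.61, and Mcm4 at 64.15 and 62.38 TPM. The order was the same in both libraries, and in all 15 pairs of MCM genes both libraries of one gene lay above both of the other. The highest and the lowest differed by 2.84 and 3.66 times, although the ring holds its subunits in equal number.

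The order of the MCM genes depended on which transcripts were counted. Mcm3 (ENSMUSG00000041859.10, chromosome 1, 20802968 to 20820312, minus strand) was the highest by gene TPM and the lowest by protein-coding transcripts. Its coding transcript Mcm3-201 held 60.55 and 56.53 TPM, which was 33.3% and 24.8% of the gene's TPM. The rest was in models annotated as retained introns, chiefly Mcm3-203 at 75.91 and 133.87 TPM and Mcm3-205 at 39.93 and 33.32 TPM. The higher gene level of Mcm3 in replicate 2 was therefore in Mcm3-203, while Mcm3-201 was slightly lower there. By coding transcripts Mcm6 led at 135.15 and 124.84 TPM, and the ratio of highest to lowest was 2.23 and 2.21. By counts per kb of the longest coding transcript the ratio was 1.59, with Mcm7 highest and Mcm4 lowest. That measure divided Mcm6 by the 4355 bases of Mcm6-203, which held 5.86% and 12.11% of its TPM. Mcm6-201, of 2910 bases, held 91.6% and 80.51%, so the 1.59 and the place of Mcm6 depend on the length used. Mcm2, Mcm4 and Mcm5 each had 1 transcript in the tables and so were the same by either TPM.

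Of the factors that activate the helicase, Mcm10 was at 58.12 and 56.90 TPM and Cdc45 at 26.74 and 26.72 TPM. By coding transcripts Mcm10 was the lower, at 16.32 and 16.75 TPM, while Cdc45 stayed at 26.74 and 26.72 TPM. By counts per kb Mcm10 was at 37.5 and 33.4 and Cdc45 at 36.4 and 35.2. That measure divided Mcm10 by the 4867 bases of Mcm10-202, which held 5.78% and 8.08% of its TPM. Cdc45 was lower than each gene of the MCM ring, and its levels in the libraries were nearly equal. The GINS genes, whose products bind CDC45 and the MCM ring, were the lowest of the subcomplexes, with medians of 19.24 and 30.785 TPM. Gins1 was at 17.32 and 32.03, Gins2 at 31.67 and 46.90, Gins3 at 6.56 and 10.66, and Gins4 at 21.16 and 29.54 TPM. By gene TPM Gins2 exceeded Gins3 by 4.83 times in replicate 1, and it was also the higher in replicate 2. By coding transcripts Gins2 turned from the highest to the lowest of the 4, at 4.21 and 1.84 TPM, below Gins3, whose level lay in its only transcript. Gins2 also shares 2758 exon bases on the opposite strand with Gse1 (36.3 and 37.93 TPM), and whether counting used the strand is not stated in the sources used here.

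At the fork, the genes of polymerase alpha-primase, which makes the primers, had close levels. Pola1, the polymerase subunit, was at 26.96 and 29.72 TPM, Pola2 at 31.39 and 43.84, and the primase genes Prim1 at 41.37 and 57.92 and Prim2 at 36.74 and 48.24 TPM. The highest and lowest differed by 1.53 and 1.95 times, in the same order in both libraries. By counts per kb the ratio, from the means of both libraries, was 1.80. It was 1.59 for MCM, where it depends on the length used for Mcm6. For polymerase epsilon, the leading-strand enzyme, the catalytic gene Pole was at 52.27 and 58.43 TPM and its partner Pole2 at 18.33 and 28.80 TPM. By counts per kb the ratio of that pair, from the means of both libraries, was 1.20, beside 2.35 by gene TPM. Further genes of this polymerase, outside the 45 genes, were Pole3 at 34.79 and 57.59 TPM and Pole4 at 28.74 and 31.38 TPM. Neither is in the ratios given here.

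For polymerase delta, which extends the lagging strand, the catalytic gene Pold1 led at 87.42 and 120.86 TPM. Below it were Pold2 at 57.28 and 54.21 and Pold3 at 36.96 and 42.18 TPM. A further gene of this polymerase, Pold4, was outside the 45 genes, at 6.23 and 6.40 TPM. Pold4 is left out of the order and ratios given here. The leading transcript of Pold1 was the model Pold1-209, a retained intron of 532 bases, at 55.8 and 50.97 TPM. The coding transcript Pold1-201 held 11.33 and 22.46 TPM, which made Pold1 the lowest of the 3 in replicate 1 and the second of them in replicate 2. The order of the delta genes by coding transcripts thus differed between the libraries. Transcripts of Pold1 with no entry in the reference annotation held a further 10.3% and 15.3% of its TPM.

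RFC opens and loads the PCNA clamp, and its genes ranged widely. Rfc1, the large subunit, was at 34.22 and 26.85 TPM, Rfc2 at 58.85 and 71.11, Rfc3 at 38.89 and 46.88, Rfc4 at 89.35 and 107.64, and Rfc5 at 38.32 and 30.85 TPM. Rfc4 exceeded Rfc1 by 2.61 and 4.01 times. Rfc2, with 1 transcript, was the highest by coding transcripts, at 58.85 and 71.11 TPM beside 39.64 and 52.18 TPM for Rfc4. Rfc1 could not be placed in that order, since 6 of its 7 transcripts had no entry in the reference.

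The RPA genes encode the 3 subunits that coat single-stranded DNA. Rpa1 was at 39.88 and 47.38 TPM, Rpa2 at 44.65 and 60.39, and Rpa3, the smallest subunit, at 48.96 and 84.41 TPM. The order was the same in both libraries, but of the 3 pairs only Rpa3 over Rpa1 kept the libraries of the genes apart. Pcna was above every other gene of the machinery in both libraries. Of the genes that finish Okazaki fragments, the flap nuclease gene Fen1 was at 48.04 and 52.94 TPM and the ligase gene Lig1 at 67.54 and 98.71 TPM. By coding transcripts Lig1 was the lower, at 30.03 and 33.48 TPM beside 48.04 and 52.93 TPM for Fen1.

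Nucleotide supply was measured through 4 genes. Rrm1 and Rrm2 encode the large and small subunits of ribonucleotide reductase and were at 89.90 and 89.98 TPM and at 78.06 and 115.01 TPM. Which of them was higher differed between the libraries, so they could not be ordered. Tyms, thymidylate synthase, was at 37.86 and 43.61 TPM, and Tk1, the thymidine kinase of the salvage route, at 79.41 and 125.30 TPM.

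**Figure D2:**
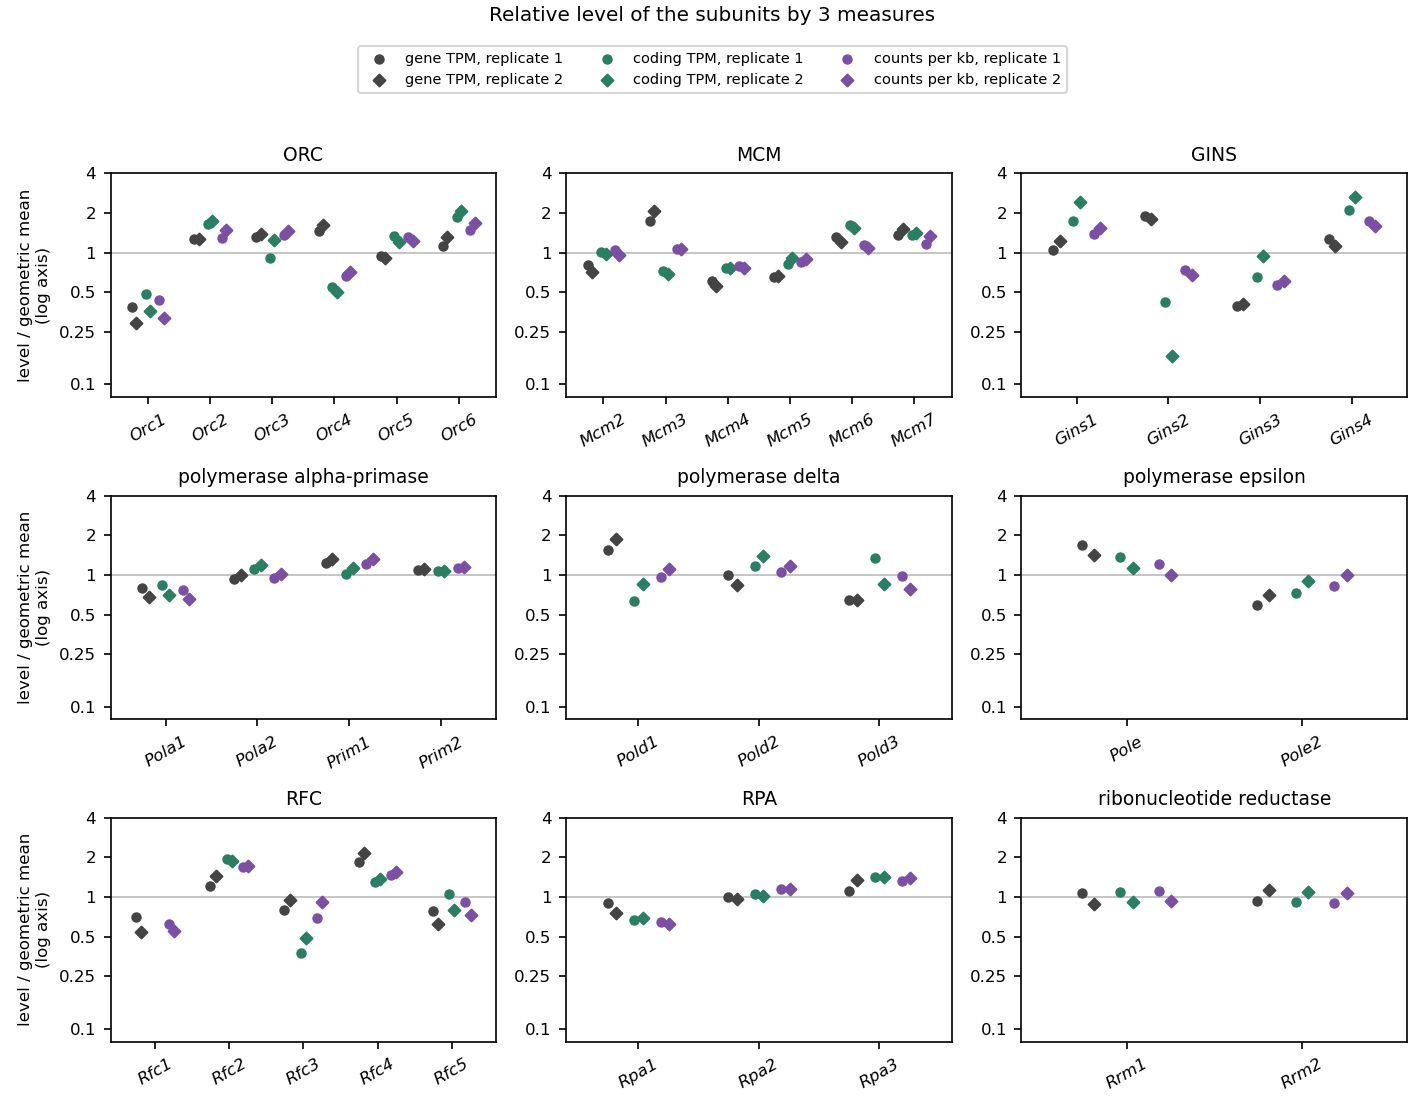
Level of each subunit divided by the geometric mean of its subcomplex (log axis), by gene TPM (black), TPM of protein-coding transcripts (green) and counts per kb of the longest coding transcript (purple), with circles for replicate 1 and diamonds for replicate 2. Orc1 is the lowest ORC gene by all 3 measures, while Mcm3, Gins2 and Pold1 are the highest of their subcomplexes by gene TPM but not by coding transcripts; Rfc1 is left out of the coding measure.

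Over the 9 subcomplexes, 49 of the 60 pairs of subunits were ordered by gene TPM with both libraries of one gene above both of the other, and 57 had the same direction in both libraries. The highest subunit was the same in both libraries in 8 of the 9 subcomplexes, the lowest also in 8, and the whole order in 6. By gene TPM the libraries thus gave nearly the same order of subunits. The ratio of highest to lowest was also taken from the means of both libraries. Restricting to coding transcripts changed it from 3.24 to 2.22 in MCM, from 2.63 to 1.70 in polymerase delta and from 4.56 to 8.38 in GINS. It left ORC at 4.68 from 4.58. In GINS the coding ratio differed between the libraries, at 5.03 and 16.05. The ratios of polymerases delta and epsilon leave out Pold4, Pole3 and Pole4.

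The 45 genes had 222 transcripts in the tables. Transcripts annotated as protein-coding held 70.2% and 68.7% of the summed TPM of the machinery, and retained-intron models 23.1% and 25.4%. By expected counts the retained-intron share was 9.12% and 10.6%, as TPM divides the counts of a transcript by its length and these models are short. Of the 36 genes with more than 1 transcript, 30 had the same leading transcript in both libraries, of which 22 were coding and 6 retained introns. In 11 of the 36 (30.6%), coding transcripts held under 50% of the TPM in both libraries, beside 13.5% of the 7468 expressed genes with several transcripts. By expected counts 3 of the 36 (8.33%) were under 50% in both, near the 7.23% of the 7468 genes. The median coding percent over the 36 genes was 75.7% and 74.9%, beside 84.5% and 85.3% over the 7468 genes. Not all of the rest was retained intron. Orc4 and Orc3 had theirs in processed transcripts. Lig1 held 41.9% and 37.9% of its TPM in non-coding classes other than retained introns. The leading Tyms transcript, Tyms-205 at 14.15 and 18.83 TPM, is annotated for nonsense-mediated decay.

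**Figure D3:**
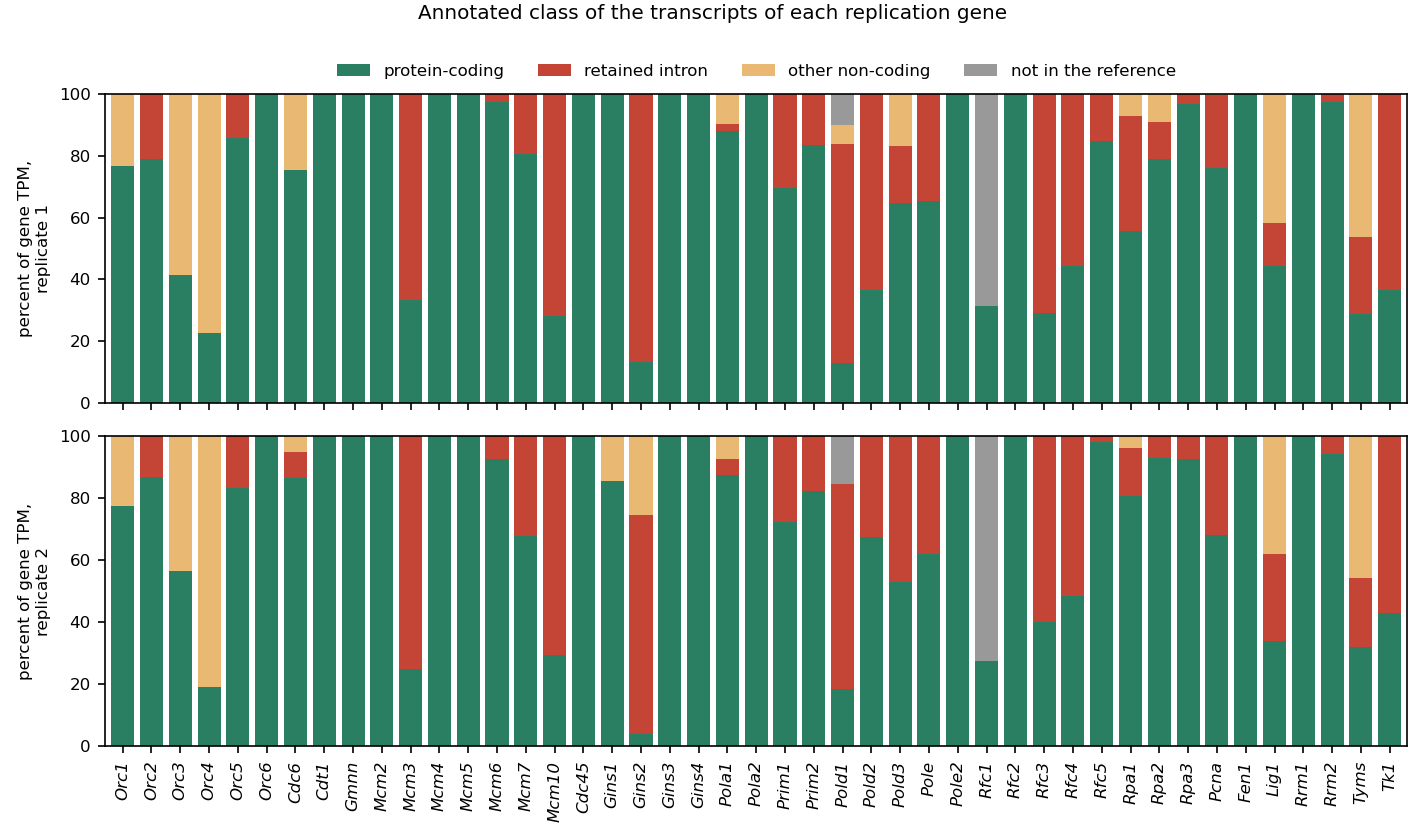
Percent of each gene's TPM in transcripts annotated as protein-coding (green), retained intron (red), other classes (yellow) or with no entry in the reference (grey), with replicate 1 above and replicate 2 below. Retained-intron models take over 50% of the TPM of Mcm3, Mcm10, Gins2, Pold1, Rfc3, Rfc4 and Tk1 in both libraries.

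In 7 genes a retained-intron model had the highest mean TPM of the gene's transcripts. These models, in Mcm3, Mcm10, Gins2, Pold1, Rfc3, Rfc4 and Tk1, are short parts of the coding transcript with few bases added. Mcm3-203 has 1 exon where the coding transcript has 17, and Pold1-209 has 4 where it has 27. The models hold 12 to 88 intron bases, and from 83.6% to 97.8% of their length is exon that the coding transcript also has. Each ends inside the last exon of the coding transcript, and in 6 of the 7 the intron bases are at the 5′ end of the model. Reads from the shared exons can be assigned to either transcript, so these levels rest on how the quantifier divided them. Mcm3-203 has 67 intron bases of 716, Pold1-209 has 87 of 532, Gins2-204 has 16 of 511, Rfc4-205 has 12 of 449 and Tk1-203 has 88 of 724.

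The boundaries below show what sets these models apart: up to 40 bases of the intron in capitals and then 40 bases of the coding exon, 5′ to 3′ on the minus strand, from GENCODE M21 transcripts on GRCm38. They are chr1:20803615-20803694 in Mcm3, chr7:44533758-44533837 in Pold1, chr8:120586153-120586208 in Gins2, chr16:23114693-23114744 in Rfc4 and chr11:117816527-117816606 in Tk1.
Mcm3-203: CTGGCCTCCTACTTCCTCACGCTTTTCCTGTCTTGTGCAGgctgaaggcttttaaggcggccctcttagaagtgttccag
Pold1-209: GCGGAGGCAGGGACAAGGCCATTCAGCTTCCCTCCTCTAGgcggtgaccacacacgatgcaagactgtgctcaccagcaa
Gins2-204: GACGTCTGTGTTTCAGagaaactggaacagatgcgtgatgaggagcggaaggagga
Rfc4-205: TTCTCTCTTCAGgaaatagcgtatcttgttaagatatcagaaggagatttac
Tk1-203: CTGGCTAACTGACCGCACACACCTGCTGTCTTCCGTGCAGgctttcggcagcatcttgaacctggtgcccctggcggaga
In these 5, and in Mcm10 and Rfc3, the intron bases end in AG, the usual letters of a splice acceptor. For Gins2-204 and Rfc4-205 the capitals are all of the intron that the model holds, so these 16 and 12 bases are the only sequence in it that the coding transcript lacks. Those models held 25.85 and 26.63 TPM and 49.72 and 55.46 TPM.

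Over the machinery the differences between the libraries stayed within 2-fold. On the log2(TPM + 1) scale, which understates the change of low genes, the median difference of replicate 2 minus replicate 1 was 0.24 over the 45 genes and 0.18 over the 9982 expressed genes. The latter shift depends on the scaling and was taken off each gene's difference below. None of the 45 genes was past 2-fold after this, where 6.63% of the expressed genes were (3.16% higher and 3.48% lower). Of the 6053 genes within the same range of mean TPM 2.2% were. The count for the machinery was thus near the share of those 6053 genes. The SD of the differences was 0.29 over the machinery and 0.46 over those 6053 genes. Across the 45 genes the levels of the libraries had a Spearman rho of 0.95, a description over genes of the same libraries and not over replicates.

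Smaller differences were larger than counting error for many genes. The exact 95% interval of the TPM ratio, which covers counting error only, was above the median ratio of all genes, 1.14, for 19 of the 45 (42.2%), where 38.1% of the expressed genes were. It was below for 14 (31.1%), where 37.2% were, so these counts were near the background. The authors' credibility intervals of the libraries did not overlap for 31 of the 45 genes, a higher share than the 60.3% of the expressed genes. The share among genes within the same range of mean TPM was not computed. The highest ratio of replicate 2 to replicate 1 was 1.85 (1.64 to 2.09) in Gins1 and the next was 1.72 (1.57 to 1.90) in Rpa3. Geminin had a ratio whose interval was 1.40 to 1.61, and Tk1 1.58 (1.49 to 1.67). The lowest were Rfc1 at 0.785 (0.743 to 0.829) and Orc1 at 0.787 (0.713 to 0.868). The effective length of Rfc1 also differed, at 2709 and 3511 bases, which the interval does not cover. By counts per kb, with 1 length for both libraries, Rfc1 was at 32.1 and 30.1 and Orc1 at 17.5 and 12.4.

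By role the differences were as follows, with no test between roles. All 4 GINS genes and all 3 RPA genes were above the median difference, with medians of 0.41 and 0.25 on the log2 scale after centring. Of the polymerase alpha-primase genes 3 of 4 were above it, with a median of 0.25, and neither Mcm10 nor Cdc45 was, with a median of -0.20. Of the MCM genes 2 of 6 were above it, with a median of -0.15, and of the ORC genes 2 of 6, with a median of -0.10. Length went with it too: the 7 genes whose longest coding transcript was under 1500 bases had a median uncentred log2 difference of 0.58, beside 0.27 over 1648 expressed genes of that length, and the 20 genes of 3000 bases or more had 0.15, beside 0.11 over 4836. The Spearman rho of length and difference was -0.46 over the 45 genes and -0.17 over 9959 expressed genes, given as descriptions. The part of length in the differences by role was not tested.

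**Figure D4:**
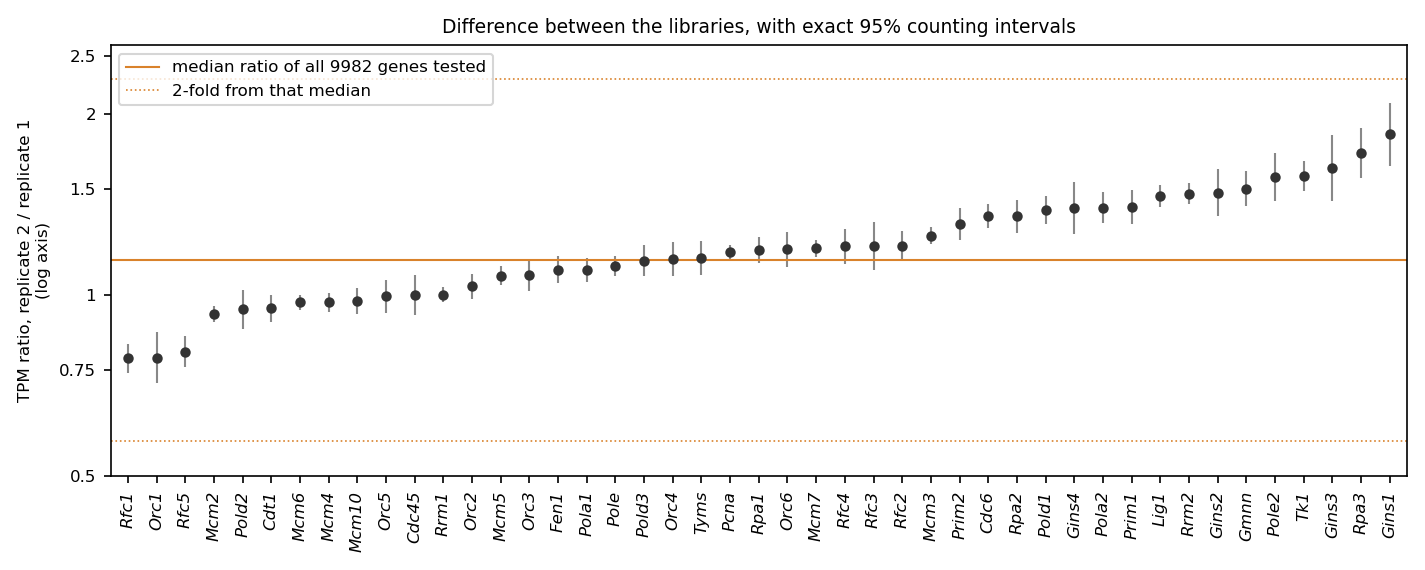
Ratio of TPM in replicate 2 to replicate 1 for each of the 45 genes (log axis), sorted, with exact 95% intervals that cover counting error only. The solid line is the median ratio of all 9982 expressed genes, 1.14, and all 45 points lie between the dotted lines at 2-fold from it.

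The libraries also differed in genes of other cell types. The 8 erythroid-side markers of MEP summed to 2490 and 2926 TPM and all reached 10 TPM in both libraries, while the 7 megakaryocyte markers summed to 19.8 and 25.2 TPM, with Pf4 at 0 in replicate 1 and Gp1bb at 0 in replicate 2. The 13 granulocyte markers summed to 1920 TPM in replicate 1 and 8.22 TPM in replicate 2, where 8 of them, with Mpo and Elane, were at 0. The 10 B lineage markers summed to 8.06 and 139.7 TPM, with Vpreb1 at 0 in replicate 1, and the 4 T cell markers to 26.4 and 18.6 TPM. The part of these cells in the levels of the replication genes was not tested.

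Other genes of replication were expressed too, with a lower median. Of a list of 44 further genes, 36 were at 10 TPM or more in both libraries. That level was reached by 53.2% of the expressed genes and 24.7% of all protein-coding nuclear genes. The median over the 44 was 26.38 and 31.14 TPM, beside 48.01 and 52.94 TPM over the 45 genes. The highest were Dut, the dUTPase that keeps uracil out of DNA, at 204.56 and 275.99 TPM, and the topoisomerase gene Top2a at 153.14 and 170.41 TPM. Next came Tipin, of the fork protection complex, at 97.12 and 137.49, Slbp, which binds histone mRNA, at 95.65 and 129.95, and the ribonuclease H2 genes Rnaseh2c at 71.39 and 116.32 and Rnaseh2a at 83.45 and 93.01 TPM. The multiciliated cell regulators Gmnc and Mcidas, relatives of geminin, had 0 counts in both libraries. Of the 42 genes of the list with a mean of at least 1 TPM, 1 was past 2-fold, beside the 6.63% of expressed genes given above: Dctpp1, a nucleotide pyrophosphatase gene, was at 25.28 and 64.93 TPM, and was named after its value was seen.

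Counts of some of the 45 genes may be shared with other genes. Pcna was the only one whose expected count was not whole, and its processed copy Pcna-ps2 was listed at 1.75 and 1.54 TPM. Exons of 17 of the 45 genes overlap exons of another gene, on the opposite strand in 14 and on the same strand in 4. The most abundant of the overlapping genes was Eif4a2 at 216.94 and 275.89 TPM, opposite Rfc4. Others opposite were Tmem258 at 92.09 and 116.53 TPM, across Fen1, and Nif3l1 at 18.75 and 14.51 TPM, which shares 1150 bases with Orc2. Without strand in the counting, reads that lie within the shared bases of such pairs cannot be told apart. The 17 genes had whole expected counts in both libraries, and the part of the overlaps in their levels was not tested.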

How the data were processed

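Total RNA of 2 MEP libraries was measured by sequencing. The authors quantified genes and their transcripts against mm10 with GENCODE M4, per the README of each library; which aligner and quantifier they used is not given in the sources used here. Deposited expected counts are estimates per gene or transcript, not always whole. TPM values were deposited too; the authors corrected them for effective length and scaled each library to the same sum over its features. The deposited percent values give each transcript's part of its gene's TPM, and the deposited signal columns are bounds of credibility intervals.

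GENCODE M21, on GRCm38, gave names, classes and coordinates. Differences were log2(TPM + 1), replicate 2 minus replicate 1, centred on the median of the 9982 protein-coding nuclear genes with a mean of at least 1 TPM. Each ratio has an exact 95% Clopper-Pearson interval, taken from rounded counts given their sum over both libraries; reads that copy the same molecule are not independent, so it covers counting error only. No p-values were computed, as 2 libraries of 1 group leave nothing to compare. Counts per kb are CPM, scaled over protein-coding nuclear genes, divided by the length of the longest coding transcript. That transcript was not always the most abundant, as in Gmnn and Mcm6. The interval and difference steps were tested on simulated data.

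All 45 members were named, with the 6 highest of the other replication genes and those under 1 TPM in both libraries. The members and lists were chosen with earlier results of these data known. Alternatives were other minimums, pseudocounts, scalings (edgeR 4.0.16 TMM factors; DESeq2 1.42.0 size factors; both on rounded counts under R 4.3.3), posterior means, transcript classes and each library alone. The alternatives for the coding percent and the promoter words were chosen after seeing the data. Protein sequences were not analysed here. The scripts ran in Python 3.11.15 with pandas 2.3.3, scipy 1.17.1, numpy 2.4.6 and, for the plots, matplotlib 3.10.9.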

Additional observations from a re-analysis of the deposited data

Results flagged for a closer look

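Signal was found on transcripts of the replication genes that the coding and retained-intron shares could not use, because their identifiers had no entry in the reference annotation. For Rfc1 these were 6 of 7 transcripts, holding 964.44 and 2346.26 expected counts in replicates 1 and 2, or 68.7% and 72.4% of the gene's TPM. For Pold1 they were 3 of 12 transcripts, holding 111.53 and 394.54 expected counts. A further such transcript, of Pold3, had 0 counts in both libraries. The gene levels of Rfc1 and Pold1 include these counts.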

How the results depend on the processing

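No paired analysis was possible because there was 1 group. Under other settings, 56 values moved by less than the spread between the libraries or, for counts and the difference between libraries, by at most 1.5 times, and 27 moved by more. A ratio of highest to lowest cannot fall below 1, so a change of subunit does not show as a change of direction. The number of genes at 10 TPM and the number past 2-fold, 0 of 45 in every scaling tried, were among the former. The median level of 49.89 TPM became 116.6 when TPM was rescaled over protein-coding nuclear genes and 132 as CPM, by construction. With coding transcripts only, counts per kb and CPM in turn, the ratio of highest to lowest subunit moved: MCM (3.24) became 2.22, 1.59 and 1.74, GINS (4.56) became 8.38, 2.80 and 1.91, polymerase delta (2.63) became 1.70, 1.27 and 1.97, polymerase epsilon (2.35) became 1.49, 1.20 and 5.05, and RPA (1.53) became 2.07, 2.16 and 3.51. RFC (3.23) became 4.31 by coding transcripts, without Rfc1, and ribonucleotide reductase (1.07) 1.86 by CPM, while each library alone gave 1.15 to 1.28 for the latter, with Rrm1 higher in replicate 1 and Rrm2 in replicate 2. CPM carries no length correction, and counts per kb use the longest coding transcript, which for Mcm6 is a minor one. The cause of the other changes was not tested. The median coding percent, 73.1% over the mean of the libraries, was 74.9% to 75.7% with each library alone and 83.2% by expected counts. Members with an E2F-like word fell from 15 to 9 without the bases after the RefSeq start, by construction. The median difference of 0.24 between libraries was 0.0292 with TMM factors, 0.0301 with size factors and 0.0650 with TPM rescaled over protein-coding nuclear genes, where that of all genes fell from 0.18 to about 0. Each of the 45 genes had at least 328 counts in each library. Reads that copy the same molecule are not independent, so these counts do not tell how many molecules were sampled from 100 cells.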
